A study of Mus musculus with 10 samples.

Results

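Cohesin, its regulators and the zinc finger protein CTCF were followed here as 10 genes in the RNA-seq libraries of E14, a mouse embryonic stem cell line. The genes are Smc1a, Smc3, Rad21, Stag1, Stag2, Nipbl, Wapl, Pds5a, Pds5b and Ctcf, chosen by symbol, and all 10 were found among the 55487 genes of each table. The series holds 10 samples in 6 groups, most of them maps of R-loops made by MapR and BisMapR that were not analysed here. The RNA-seq group has 3 replicates of unperturbed cells, grown in medium with 15% FBS, LIF, a GSK inhibitor at 3 µM and a MEK1/2 inhibitor at 1 µM. The libraries keep strand and were made from total RNA after removal of rRNA. There is 1 group, so no condition was compared. The labels do not say whether the replicates came from separate cultures, and the spread between them may therefore be technical.

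Cohesin is a ring of a pair of SMC ATPases, SMC1A and SMC3, closed by the kleisin RAD21 and bound by an SA protein, STAG1 or STAG2. NIPBL stimulates loading and loop extrusion, WAPL releases the ring from chromatin, and PDS5A and PDS5B bind the ring and act in both its release and its protection. CTCF binds DNA with its zinc fingers and halts extruding cohesin, which places loop anchors and domain borders. In embryonic stem cells, as in other dividing cells, the same ring also holds sister chromatids together until anaphase.

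All 10 genes were expressed, with a mean TPM (a level per transcript length, scaled to 1 sum in every library) from 6.24 for Stag2 to 65.9 for Pds5a. For comparison, 44.1% of the 21974 protein-coding genes and 19.8% of all genes averaged 1 TPM or more, and 40.7% of protein-coding genes did so in every replicate, as all 10 members did. All 10 also averaged 5 TPM or more, against 24.1% of protein-coding genes, and 7 averaged 10 or more, against 14.0%. On the count scale, 55.2% of protein-coding genes and all 10 members averaged 1 CPM or more, CPM being counts scaled to the library total. The median over the members was 13.6 TPM, against 5.73 TPM over the 9683 protein-coding genes with a mean of at least 1 and 0.457 TPM over all protein-coding genes. Together the members held 0.199%, 0.202% and 0.183% of the estimated counts of replicates 1, 2 and 3. In each replicate a member had between 501 and 5614 counts, so its counting error was at most 4.47%. These libraries come from whole cultures, where fewer cells with a transcript and less of it per cell cannot be told apart.

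Sequencing depth was 11420425 estimated counts in replicate 1, 6467405 in replicate 2 and 5787357 in replicate 3. The stem cell markers Pou5f1, Nanog, Sox2, Zfp42 and Esrrb all had a mean of at least 32.9 TPM. Of 4 fibroblast markers, Col1a1, Col1a2 and Acta2 stayed under a mean of 1 TPM and Thy1 reached 2.50 ± 1.15 TPM (SD, n = 3). Of 4 primitive endoderm markers the highest, Gata4, had 0.450 ± 0.187 TPM (SD, n = 3).

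**Figure D1:**
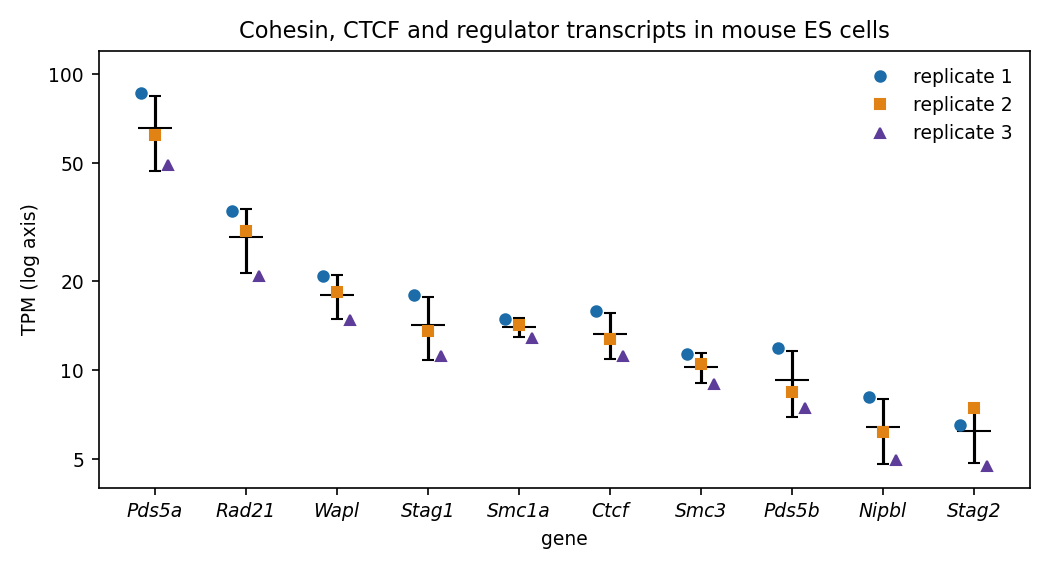
TPM on a log axis for the 10 genes in each of the 3 replicates (coloured symbols), with the mean (black dash) and SD (bar), ordered by mean. Pds5a stands highest at 65.9 TPM and Stag2 lowest at 6.24, and replicate 3 is the lowest of the 3 for every gene.

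Among the ring subunits the kleisin gene Rad21 was the most abundant. Rad21 (ENSMUSG00000022314, chromosome 15, 51962240 to 51991747, minus strand, GRCm38) had 34.4, 29.5 and 20.8 TPM in replicates 1, 2 and 3, from 3507, 2113 and 1404 counts. Replicates 1 and 2 lay close together and replicate 3 lay below both. Smc1a (ENSMUSG00000041133, chromosome X, 152016428 to 152062694, plus strand), an ATPase arm of the ring, had 14.9, 14.2 and 12.8 TPM. Smc3 (ENSMUSG00000024974, chromosome 19, 53600398 to 53645833, plus strand), the partner arm, had 11.3, 10.5 and 8.97 TPM. No replicate of Rad21 overlapped any replicate of either SMC gene, and the lowest Smc1a value exceeded the highest Smc3 value.

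Within replicates Rad21 exceeded Smc3 by 1.44 ± 0.20 (SD, n = 3) on the log2 TPM scale, a 2.71-fold difference in level. Smc1a exceeded Smc3 by 0.45 ± 0.06 (SD, n = 3) on the same scale, or 1.37-fold. Each had the same sign in 3 of 3 replicates. With 3 replicates an exact two-sided sign permutation test cannot give a p below 0.25, which is the value of each of the 6 ratios tested in this section, raw and after adjustment over the 6, so the size of a ratio is read against its SD. The Smc1a to Smc3 ratio was smaller on count scales, at 0.23 ± 0.11 (SD, n = 3) without length scaling, a 1.17-fold difference.

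Smc1a starts beside a gene of the opposite strand. The start of Ribc1, a protein-coding gene transcribed the other way, lies 133 bp from that of Smc1a. The 132 bases between the starts are printed because both transcripts leave from them, at chrX:152016296-152016427 on the plus strand (RefSeq, GRCm38.p6), with a GC box (GGGCGG) and an inverted CCAAT box in capitals.
Smc1a and Ribc1: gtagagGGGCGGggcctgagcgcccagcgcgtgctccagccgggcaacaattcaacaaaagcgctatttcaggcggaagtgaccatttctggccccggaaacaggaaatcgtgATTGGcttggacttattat
Ribc1 had 0.46, 0.50 and 0.54 TPM, from 17, 13 and 14 counts. The Smc1a side was thus above 12 TPM in every replicate and the Ribc1 side under 1 TPM in every replicate.

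The SA subunits were unequal, with more Stag1 than Stag2. Stag1 (ENSMUSG00000037286, chromosome 9, 100597798 to 100959375, plus strand) had 17.9, 13.6 and 11.2 TPM from 1804, 1062 and 923 counts. Stag2 (ENSMUSG00000025862, chromosome X, 42149317 to 42277185, plus strand) had 6.54, 7.43 and 4.74 TPM from 979, 660 and 501 counts. The lowest Stag1 value lay above the highest Stag2 value. Stag2 fell short of Stag1 in 3 of 3 replicates, with a log2 ratio of Stag2 to Stag1 of -1.46, -0.87 and -1.24 in replicates 1, 2 and 3 and a mean of -1.19 ± 0.30 (SD, n = 3) in TPM, so Stag1 stood 2.28-fold higher. Without length scaling the ratio was -0.82 ± 0.11 (SD, n = 3), or 1.76-fold in the same direction.

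The loader and release genes differed in level. Nipbl (ENSMUSG00000022141, chromosome 15, 8290617 to 8444463, minus strand) had 8.10, 6.19 and 4.95 TPM. Wapl (ENSMUSG00000041408, chromosome 14, 34673928 to 34747983, plus strand), whose product opens the ring, had 20.7, 18.3 and 14.7 TPM. All 3 Wapl values lay above all 3 Nipbl values. Wapl exceeded Nipbl by a mean of 1.50 ± 0.12 (SD, n = 3) in log2 TPM, or 2.82-fold, but by 0.47 ± 0.10 (SD, n = 3) in counts without length scaling, or 1.39-fold. Nipbl has a single annotated transcript of 9423 nt, the longest transcript of any member, so its counts are divided by the largest length.

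Wapl also has a divergent neighbour, the noncoding gene 5830448L01Rik, annotated as a bidirectional promoter lncRNA, whose start lies 165 bp away. The 164 bases between the starts are shown for comparison with those of Smc1a, at chr14:34673764-34673927 on the plus strand (RefSeq, GRCm38.p6). Capitals mark a CCAAT box, a match to the NRF1 motif, an inverted CCAAT box and a GC box, in that order.
Wapl and 5830448L01Rik: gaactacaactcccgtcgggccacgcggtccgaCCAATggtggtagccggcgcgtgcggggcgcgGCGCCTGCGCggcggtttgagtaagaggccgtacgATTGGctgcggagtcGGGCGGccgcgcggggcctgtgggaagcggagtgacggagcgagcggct
The noncoding side had 0.22, 0.23 and 0.14 TPM from 7, 5 and 3 counts, at or near the floor of 3 counts. As at Smc1a, the cohesin side was the higher one in every replicate. This stretch held 27 CpG dinucleotides against 9 in that of Smc1a, and its GC content was 72.6% against 56.1%.

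The PDS5 genes showed the largest gap among the 6 ratios in TPM and in counts, though not per longest transcript, where Rad21 to Smc3 was larger at 1.47 on the log2 scale. Pds5a (ENSMUSG00000029202, chromosome 5, 65605721 to 65698273, minus strand) had 86.1, 62.3 and 49.2 TPM from 5614, 2980 and 2425 counts. It was the highest member in TPM in every replicate and stood above 96.4% of expressed protein-coding genes. Pds5b (ENSMUSG00000034021, chromosome 5, 150673739 to 150810690, plus strand) had 11.9, 8.44 and 7.47 TPM from 1906, 939 and 829 counts. Pds5a exceeded Pds5b by 2.82 ± 0.09 (SD, n = 3) in log2 TPM, or 7.06-fold. The same pair differed by 1.59 ± 0.07 (SD, n = 3) without length scaling, or 3.01-fold, and by 1.32 ± 0.07 (SD, n = 3), or 2.50-fold, when counts were divided by the longest annotated transcript. The direction held on each scale, and the size in TPM rests on the transcript lengths described next.

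**Figure D2:**
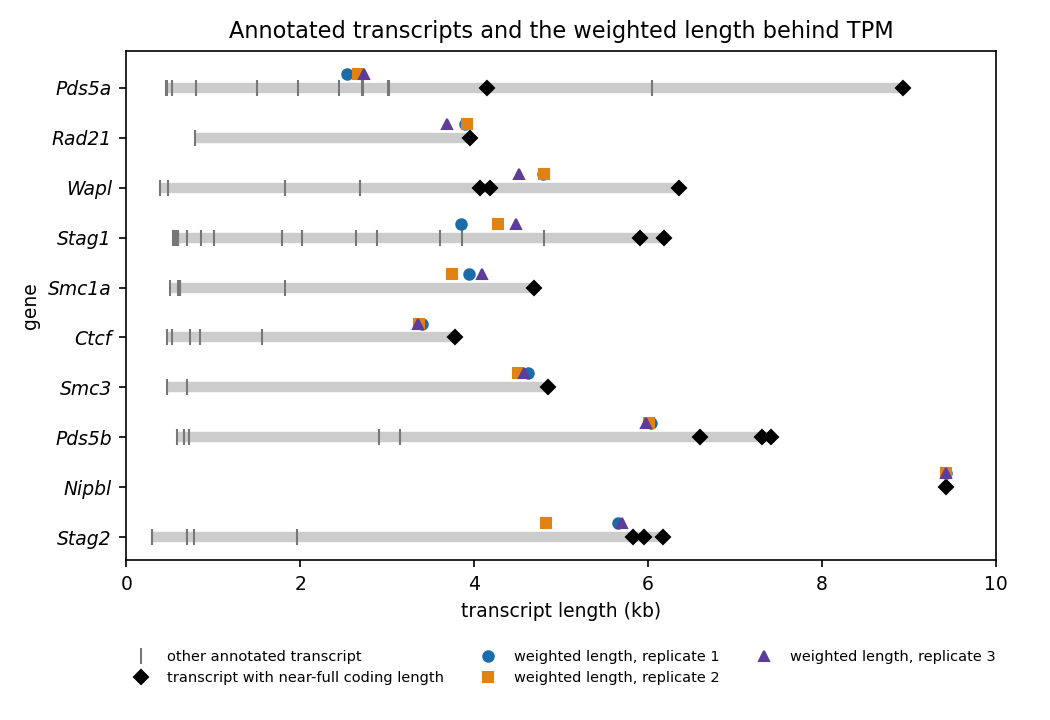
Annotated transcript lengths in kb for each gene (grey bar from shortest to longest, ticks and diamonds for transcripts, diamonds for those with near-full coding length) and the authors' abundance-weighted length in each replicate (coloured symbols). The Pds5a symbols, at 2541 to 2730 nt, lie left of both of its diamonds. Symbols also lie left of every diamond for the other genes except Wapl and Nipbl, those of Smc3 being close to its single diamond.

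TPM divides by a gene length that the authors' tool averages over the gene's transcripts in proportion to their estimated abundance. All listed transcripts of the members, from 1 for Nipbl to 17 for Stag1, were found in the GENCODE vM21 annotation. For Pds5a the weighted length was 2541, 2665 and 2730 nt in replicates 1, 2 and 3, although its transcripts with at least 90% of the longest coding length start at 4146 nt and the longest has 8934 nt. Those lengths bound the share of near-full coding transcripts in the authors' estimate at 56.5%, 59.8% and 61.6% at most, with a lower bound of 0. Most of the other annotated Pds5a transcripts are retained-intron records. Stag1 gave upper bounds of 61.6%, 69.5% and 73.4%, also with a lower bound of 0.

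For most of the remaining members the bounds were narrower. Rad21 has 2 annotated transcripts, which fixes the share of its full coding transcript at 98.1%, 98.9% and 91.6%. Smc3 was bounded between 91.6% and 94.7% over the replicates, and Ctcf between 81.0% and 88.5%. For Wapl the bounds stayed wide, from 49.8 to 100% in replicate 3. Stag2 varied most between replicates, from 68.0 to 82.0% in replicate 2 to at least 87.8% in replicates 1 and 3. Its weighted length was 4827 nt in replicate 2 against 5657 and 5700 nt in the others, and replicate 2 is also where its TPM was highest. In CPM, which uses no length, Stag2 was highest in replicate 2 as well, with 85.7, 102 and 86.6 in replicates 1, 2 and 3.

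Ctcf lay below Rad21 and did not differ from Smc1a beyond the spread. Ctcf (ENSMUSG00000005698, chromosome 8, 105636568 to 105682922, plus strand) had 15.8, 12.8 and 11.2 TPM from 1402, 780 and 683 counts. Every Ctcf value lay below every Rad21 value, with a log2 TPM ratio of Ctcf to Rad21 of -1.07 ± 0.16 (SD, n = 3). That puts Rad21 2.11-fold higher in TPM and 2.41-fold higher in counts. Beside Smc1a, Ctcf differed by 0.09 ± 0.15 (SD, n = 3) in log2 TPM, within the spread.

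**Figure D3:**
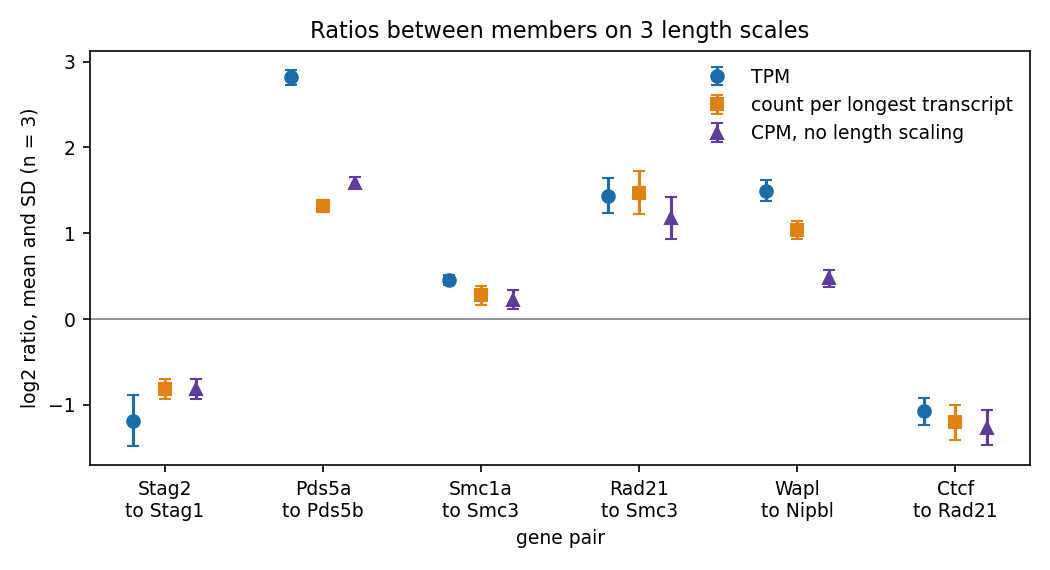
Mean log2 ratio and SD over 3 replicates for 6 pairs of members, with TPM (circles), counts per longest annotated transcript (squares) and CPM without length scaling (triangles). Every ratio keeps its sign on the 3 scales, and Pds5a to Pds5b moves furthest, from 2.82 to 1.32.

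In order of mean TPM the members ran Pds5a, Rad21, Wapl, Stag1, Smc1a, Ctcf, Smc3, Pds5b, Nipbl and Stag2. A step between neighbours was taken as beyond the spread when its mean within-replicate log2 difference exceeded 2 SD with 1 sign in all replicates. The steps from Pds5a to Rad21, Rad21 to Wapl, Wapl to Stag1, Ctcf to Smc3 and Pds5b to Nipbl met this. Stag1, Smc1a and Ctcf could not be ordered among themselves, nor could Smc3 and Pds5b, nor Nipbl and Stag2. With counts divided by the longest annotated transcript Rad21 moved to the first place and Pds5a to the second, by a log2 difference of 0.52 ± 0.15 (SD, n = 3), and Stag1 fell to the seventh place while Stag2 stayed last.

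In TPM, replicate 3 was lowest for 10 of 10 members and replicate 1 highest for 9 of 10, Stag2 being the exception. Genes with an effective length under 100 nt in any replicate held 60.3%, 65.8% and 64.0% of TPM in replicates 1, 2 and 3, and TPM of all other genes depends on that share. With those short genes left out, replicate 3 was still lowest for 10 of 10 members, and replicate 1 was highest for 6. Replicate 3 was also lowest for 10 of 10 per longest transcript. After TMM scaling of counts, which does not use that share, replicate 3 was lowest for 2 members, Rad21 and Nipbl, and highest for 4. The cause of this difference between scales was not tested. The members' median deviation from the gene mean was then -0.06, -0.02 and 0.04 on the log2 scale in replicates 1, 2 and 3.

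None of the 10 members varied between replicates beyond genes of like abundance (edgeR goodness-of-fit test, smallest Benjamini-Hochberg adjusted p 0.999997), where 1.84% of 12577 genes did. At an unadjusted p under 0.05 the count was also 0 of 10, against 6.96% of genes, and it was 0 of 10 with DESeq2 size factors, against 1.84% of genes. It was also 0 of 10 with no filter on low counts (1.19% of genes called), a common dispersion (1.86%), a smooth correction for gene length (1.53%) and without replicate 1, 2 or 3 (0.709%, 0.474% and 0.683%). With 10 genes and that background, a count of 0 says little about the members. The range of TMM-scaled log2 CPM over the replicates had a median of 0.19 among members and 0.28 among the 7877 protein-coding genes that averaged 100 counts or more. The coding genes were not matched to the members in abundance, so these medians do not show that members vary less. On this TMM scale Nipbl had the narrowest range, 0.06, and Pds5a 0.07. Smc1a had the widest, 0.49, larger than that of 79.3% of those coding genes, with deviations of -0.22, -0.04 and 0.27 in replicates 1, 2 and 3. In CPM without TMM scaling the order differed. There Ctcf stayed within 118.0 to 122.8 while Nipbl ran from 150.7 to 178.5, and Rad21 ran from 242.6 to 326.7 while Smc1a ran from 134.7 to 166.2.

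**Figure D4:**
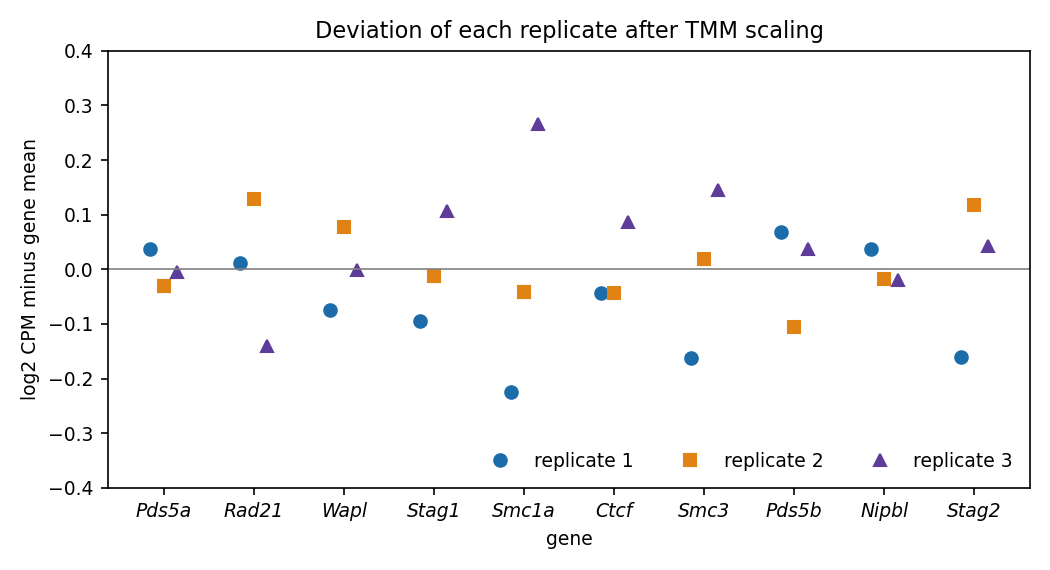
Deviation of each replicate's log2 CPM from the gene's mean after TMM scaling, for the 10 members in order of mean TPM. Smc1a spans -0.22 to 0.27, Nipbl stays within -0.02 to 0.04, and no replicate is lowest throughout.

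Sequence shared with other genes was checked because it can split reads between genes. Estimated counts were whole numbers (within 0.005) in every replicate for 9 of 10 members, Smc3 being the exception, and for 83.2% of expressed protein-coding genes. Smc3 shared 18 of its 5464 stretches of 75 bases with the processed pseudogene Gm11204. Ctcf shared 293 with Gm5914 and 40 with Agrp, antisense genes that overlap it and had at most 4 counts in a replicate; whether counting used strand is not given in the sources used here. Pds5a shared 113 with Gm42727 and 45 with Gm42729, which had at most 5 counts. Stag1 and Stag2 shared none, nor did Pds5a and Pds5b.

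The meiotic and germline relatives of the members were partly expressed. Of 5 genes, Stag3, Rec8 and Smc1b reached a mean TPM of 1, as did 44.1% of protein-coding genes. Stag3, the meiotic SA gene, had 8.60, 5.97 and 3.03 TPM from 742, 347 and 193 counts, a range that overlapped that of Stag2. The log2 TPM ratio of Stag3 to Stag2 was 0.40, -0.32 and -0.65 in replicates 1, 2 and 3, so these genes could not be ordered in TPM. In counts Stag3 lay below Stag2 in 3 of 3 replicates, with a log2 ratio of -0.90 ± 0.49 (SD, n = 3), or 1.87-fold lower. Stag3 made up 21.4% ± 5.05 (SD, n = 3) of the summed TPM of the SA genes, Stag1 54.5% ± 4.37 and Stag2 24.1% ± 3.97. Of their summed counts Stag3 made up 16.6% ± 4.56 (SD, n = 3), Stag1 53.2% ± 3.37 and Stag2 30.2% ± 2.17.

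Rec8, the meiotic kleisin, had 2.93, 3.16 and 1.43 TPM and made up 7.99% ± 1.63 (SD, n = 3) of kleisin TPM beside Rad21, but 4.09% ± 0.591 of kleisin counts. Smc1b had 2.54, 1.95 and 2.30 TPM. It made up 13.95% ± 1.66 (SD, n = 3) of the summed TPM of Smc1a and Smc1b, and 11.2% ± 1.75 of their counts. The kleisin gene Rad21l had 0 counts in every replicate, where 3 counts would be 0.263, 0.464 and 0.518 CPM. Ctcfl, the germline relative of Ctcf, had 13, 7 and 3 counts, or 0.792% ± 0.302 (SD, n = 3) of the summed TPM of the pair. Stag3 had an unadjusted p of 0.059 in the edgeR test of variation and an adjusted p of 0.78.

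All 12 listed genes of the cohesin cycle had a mean TPM of at least 1, against 44.1% of protein-coding genes. Their median was 10.4 TPM. Mau2, the partner of Nipbl in the loader, had 11.3, 10.2 and 8.21 TPM. Its log2 ratio to Nipbl was 0.65 ± 0.14 (SD, n = 3) in TPM, -0.82 ± 0.01 in counts and -0.01 ± 0.01 per longest transcript, so the direction depended on the length used. Of the SMC3 acetyltransferases, Esco2 had 27.2, 22.6 and 19.6 TPM and Esco1 4.91, 4.25 and 3.42 TPM. Esco2 exceeded Esco1 in 3 of 3 replicates, 5.53-fold in TPM and 3.34-fold in counts. Hdac8, the deacetylase of SMC3, was the lowest of the list at 1.47 ± 0.401 TPM (SD, n = 3), from 57, 38 and 30 counts.

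Among genes that guard or end cohesion, the securin gene Pttg1 was highest in TPM, at 36.2 ± 7.87 (SD, n = 3). Per longest transcript Sgo2a was higher than Pttg1 in each replicate, with means of 43.0 against 38.6 whose SDs overlap. In counts Sgo2a, Espl1, Sgo1 and the listed gene Plk1 were all higher than Pttg1. The separase gene Espl1, whose product cuts RAD21 at anaphase, had 15.1, 12.8 and 5.35 TPM, with replicate 3 well below the others. It was the single listed gene with an unadjusted p under 0.05 in the edgeR test of variation, at 0.0201, and its adjusted p was 0.437. Cdca5, which encodes the WAPL antagonist sororin, had 8.53, 7.53 and 4.41 TPM. The shugoshin genes Sgo1 and Sgo2a had 10.9 ± 1.30 and 14.9 ± 3.23 TPM (SD, n = 3).

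The 6 listed zinc finger and LIM-binding genes linked to loop anchors all passed 1 TPM, against 44.1% of protein-coding genes. Their median was 10.8 TPM. Maz was highest at 17.1 ± 5.58 and Vezf1 lowest at 3.28 ± 1.31 TPM (SD, n = 3). Yy1 had 10.4, 9.44 and 6.82 TPM and Zfp143 10.3, 7.55 and 6.56 TPM. Ctcf stood above both in each replicate. In the edgeR test of variation, none of the 36 genes tested among the 38 listed relatives and partners was called. Of all 12577 genes tested 1.84% were called, so a count of 0 says little about these genes.

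**Figure D5:**
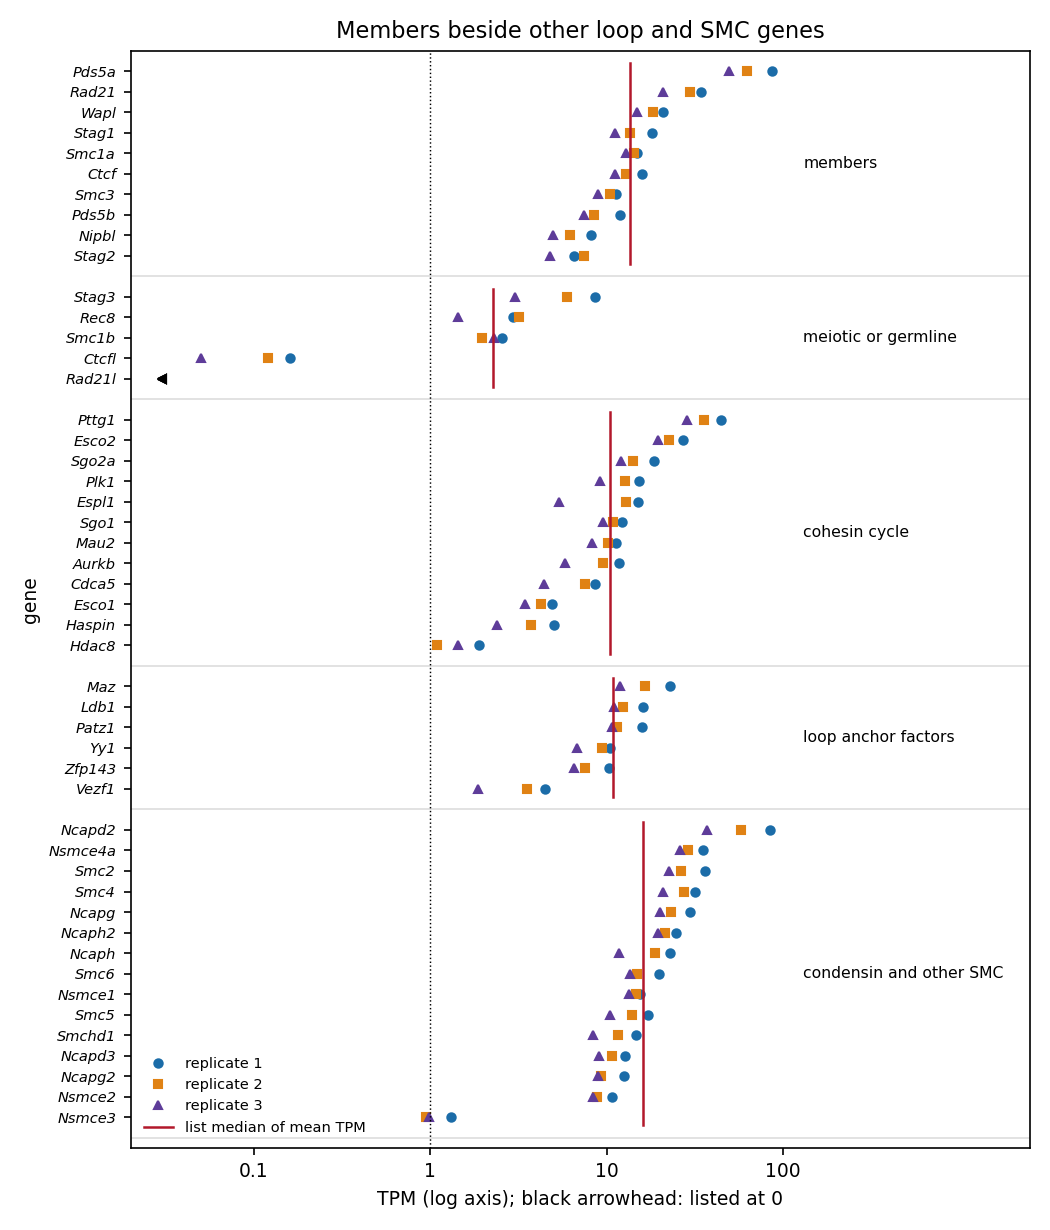
TPM on a log axis in each replicate for the 10 members and 38 listed genes around them, grouped by list, with the median of each list's mean TPM as a red line a dotted line at 1 TPM and an arrowhead for Rad21l, listed at 0. The median is 13.6 TPM for the members and 2.26 TPM for the meiotic and germline list, where Stag3, the highest of that list, has a mean below that of every member.

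Start regions were available for 7 of the members (RefSeq, GRCm38.p6, 250 bases before to 50 after the start). The window of Stag1, from 100643198, belongs to a RefSeq start inside the gene, downstream of the gene start given above. Its matches are therefore not at that gene start. The RefSeq starts of Pds5a and Pds5b also lie downstream of the gene starts given above, though their windows still include those gene starts. The AANATGGC match of Pds5b, printed below, lies downstream of its gene start. These 7 windows held a median of 41 CpG dinucleotides, against 7 over 32851 windows of the same length, and from 23 in Smc1a to 55 in Pds5a. The GC box letters GGGCGG, on either strand, were found in 7 of 7 windows, and in 35.7% of all windows or 83.2% of the 7071 windows with at least 23 CpG. No member window held TATAAA, which is found in 13.6% of all windows and 3.39% of the CpG-rich ones. The NRF1 motif was found in 3 windows (Pds5b, Stag1 and Wapl), against 4.6% of all windows and 14.3% of CpG-rich ones. The CCAAT box was found in 4 of 7 windows, against 37.4% of all windows and 31.2% of CpG-rich ones. No member window held the ETS motif (8.86% and 19.1%) or the core of the CTCF motif (2.43% and 2.89%). These motifs and the YY1 motif described next made up the whole search. Whether any motif was more frequent in member windows than in the others was not tested.

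The letters AANATGGC, the core of the YY1 motif, were found in 4 of the 7 windows, against 6.05% of all windows and 8.0% of CpG-rich ones. The stretches are printed in the reading direction of the match, with the match in capitals. The search fixed every capital except that at N, which was A in all 4. The genes encode different parts of the machinery (boundary factor, PDS5 protein, ATPase and SA subunit).
Ctcf: gctcggacacAAAATGGCggcggcgcgg
Pds5b: tctccgcttcAAAATGGCgccaagagca
Smc3: gtggccaaacAAAATGGCggcggccgcg
Stag1: agaagctctaAAAATGGCgggcggcaac
They lie at chr8:105636538-105636565, chr5:150673780-150673807, chr19:53600386-53600413 and chr9:100643236-100643263. In Ctcf, Pds5b and Smc3 the match is on the strand opposite to the gene, and in Stag1 on the same strand. A match describes letters and does not show binding.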

How the data were processed

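Per the file headers, each table holds gene-level output of RSEM for 1 library. STAR, RSEM and build mm10 are named in the submitters' processing notes, without versions; annotation release and strand setting are not given in the sources used here. The authors deposited estimated counts without normalization and TPM scaled by effective length; the deposited length and effective length are in nt. Deposited FPKM was not used. Of 55487 gene IDs, 55227 matched GENCODE vM21 (GRCm38), which gave symbols, coordinates and transcripts. Group and replicate number come from each title.

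The members and gene lists were chosen with earlier results of these data known. Genes named are the members, the listed genes, divergent neighbours with starts within 1000 bp, genes sharing 75-base stretches with a member and the 3 nearest level profiles. Stretches that Wapl shares with other genes are not reported here. Ratios were taken within replicates and tested by exact sign permutation. Variation used counts rounded to whole numbers in edgeR 4.0.16 (R 4.3.3): filterByExpr, TMM, trended dispersion, goodness of fit, Benjamini-Hochberg over all genes tested. The test was also run on simulated data of 12201 genes, all drawn with 1 common dispersion. It recovered 6, 40, 49 and 50 of 50 genes raised 2-, 4-, 8- and 16-fold in replicate 1. There was 1 call among 12003 unchanged genes. The measured genes need not share 1 dispersion, and replicate 1 is the deepest, so these rates may not hold for the measured counts. CPM is a count scaled to the library total. Shares of near-full coding transcripts (at least 90% of the longest coding length) are the extremes allowed by the weighted length. Python 3.11.15, scipy 1.17.1, pandas 2.3.3 and DESeq2 1.42.0 were also used. Floors and counting errors cover counting error only. Alternatives changed the length scale, denominator, pseudocount, limit, filter, normalization, dispersion and replicates used.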

Additional observations from a re-analysis of the deposited data

How the results depend on the processing

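The 21 results were recomputed under 128 alternatives, 118 planned and 10 (single members per longest transcript) chosen after seeing the data. None reversed, 84 stayed within the allowed spread and 44 moved. For ratios and single-member levels the allowed spread was the SD over replicates. Leaving out 1 of 3 replicates always shifts a mean by less than that SD. Those ratios and levels therefore stayed within the spread by construction, which says nothing about their stability. A reversal was a change of sign, so levels and gene counts, which are never negative, could not reverse. Leaving out genes under 100 nt cannot change a within-replicate ratio, because the denominator cancels. Neither a pseudocount nor leaving out a replicate could reverse a ratio, because every ratio had the same sign in all replicates. The absence of reversals is therefore informative only for the ratios in CPM and per longest transcript, and for the replicate deviation. Without length scaling (CPM) the log2 ratios became -0.82 for Stag2 to Stag1, 1.59 for Pds5a to Pds5b, 0.23 for Smc1a to Smc3, 1.18 for Rad21 to Smc3, 0.47 for Wapl to Nipbl and -1.27 for Ctcf to Rad21. Per longest transcript, Stag2 to Stag1 was -0.81, Pds5a to Pds5b 1.32, Smc1a to Smc3 0.28 and Wapl to Nipbl 1.04. A pseudocount of 1 gave 2.69 for Pds5a to Pds5b and 1.36 for Wapl to Nipbl. The median member level rose from 13.6 to 37.2 TPM without genes under 100 nt and to 69.6 TPM over protein-coding genes only, by construction of the smaller denominator.

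The members' median deviation in replicate 3 rose from 0.04 to 0.17 (log2) with a smooth correction for gene length, and 9 of 10 members then lay above their mean there; the cause was not tested. No member was called as varying under any of the 7 alternatives, with smallest adjusted p-values from 0.923 to 0.999996 by edgeR. The number of genes called in the whole table, 232, was 89, 63 and 93 without replicate 1, 2 and 3. Among the 38 listed genes the count at 1 TPM was 35 without replicate 1, against 36. The estimated counts of Smc3 were not whole in replicates 1 and 3; the cause was not tested. Depth limits the low end, where 3 counts equal 0.518 CPM in replicate 3. No paired analysis was possible because 1 group alone was analysed.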

Other observations

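Other SMC complexes were expressed beside cohesin. All 15 listed genes of condensin, the complex of SMC5 and SMC6 and the noncanonical SMC gene Smchd1 averaged at least 1 TPM. That limit was passed by 44.1% of protein-coding genes, and the median of the 15 was 16.1 TPM. The condensin ATPase genes Smc2 and Smc4 had 28.2 ± 6.90 and 26.6 ± 5.51 TPM (SD, n = 3). Both lay above Smc3 in each replicate, 2.71-fold and 2.57-fold in TPM and 1.82-fold and 2.09-fold in counts. Ncapd2, a HEAT-repeat subunit of condensin I, was highest in TPM, at 83.8, 57.7 and 37.0. Per longest transcript Smc4 was higher than Ncapd2 in each replicate, with means of 66.3 against 57.6 whose SDs overlap. In counts Smc4 had the higher mean (267.8 ± 10.7 against 246.7 ± 40.4 CPM), also with overlapping SDs, but was the lower in replicate 1. The kleisin gene Ncaph had 22.9, 18.9 and 11.7 TPM. In condensin II, Ncaph2 had 21.9 ± 2.74, Ncapd3 10.9 ± 1.84 and Ncapg2 10.2 ± 2.01 TPM (SD, n = 3). Smc5 and Smc6 had 13.8 ± 3.34 and 16.1 ± 3.29 TPM (SD, n = 3), and Nsmce3 was lowest at 1.08 ± 0.194 TPM (SD, n = 3).

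The protein-coding genes whose log2 TPM over the 3 replicates lay nearest to the mean profile of Smc1a, Smc3 and Rad21 were Chchd1, Puf60 and Asnsd1, at distances of 0.035, 0.052 and 0.058. Of 9672 genes compared, 584 lay within 0.5, so this likeness in level is common.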
